A study of Mus musculus with 11 samples.

Results

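The miR-17~92 cluster is a group of 6 microRNA (miRNA) hairpins that are cut from a single transcript, Mir17hg. It was followed here in liver of telomerase-knockout mice with and without the tumour suppressor p53. Its members were the 10 mature miRNA names of the cluster, taken by name and not by their values, out of 1281 names in the count table. Where a name had several hairpin entries, the entry with the most reads was used. All 10 names had reads, and 8 of them passed the filter on low counts that left 388 miRNAs for testing.

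Small RNA was sequenced from 6 G4 p53-/- livers, with short telomeres and no p53, and from 5 G4 p53+/+ livers, with short telomeres and intact p53. All mice lacked telomerase, were on a C57/B6 background and were untreated. Mice with telomerase were not analysed here, and ages and sexes were not given in the sources used here. Nothing in the labels ties each library to its own animal, so the p-values below reflect variation among libraries, which may be technical. The p53-/- libraries 6, 7 and 8 carry HA numbers below 500 in their labels and all other libraries above it, and what the number means is not known.

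The cluster, also called oncomiR-1, is known as a target of MYC and of E2F factors that favours growth and survival of dividing cells. It is required for B-cell and lung development in mice and is often raised in tumours, liver cancer among them. Its products act in seed families, the seed being bases 2 to 8, with which a miRNA pairs to its targets. miR-17 and miR-20a are known to repress the p53-induced cell-cycle inhibitor p21, E2F1 and the death factor Bim, and miR-18a represses Ctgf. In human tumour cells p53 has been reported to repress the cluster in low oxygen.

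The 6 hairpins span 836 bases of the plus strand at chr14:115043671-115044506 (GRCm38), in the order miR-17, miR-18a, miR-19a, miR-20a, miR-19b-1 and miR-92a-1. GENCODE M21 places all of them in exon 2 of the lincRNA Mir17hg. The mature sequences are shown because the seed, in capitals, sorts the members into families that are described together below. All 10 members matched a mature sequence in RefSeq (GRCm38.p6).
mmu-miR-17-5p: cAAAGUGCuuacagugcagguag
mmu-miR-20a-5p: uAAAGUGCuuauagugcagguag
mmu-miR-18a-5p: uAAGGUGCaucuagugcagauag
mmu-miR-19a-3p: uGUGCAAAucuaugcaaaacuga
mmu-miR-19b-3p: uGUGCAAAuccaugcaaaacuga
mmu-miR-92a-3p: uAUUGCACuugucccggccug
mmu-miR-17-3p: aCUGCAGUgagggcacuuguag
mmu-miR-18a-3p: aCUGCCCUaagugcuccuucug
mmu-miR-20a-3p: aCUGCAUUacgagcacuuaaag
mmu-miR-92a-1-5p: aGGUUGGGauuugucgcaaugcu
Counted from 1 at the 5′ end, miR-17-5p and miR-20a-5p differ by 2 substitutions outside the seed, C1U and C12U. miR-19a-3p and miR-19b-3p differ by U11C alone. miR-18a-5p carries A4G within the seed relative to miR-17-5p, so it belongs to another family. Such close relatives may share reads, since how the authors' counting treated mismatches is not given in the sources used here.

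Total counts per library ran from 1905609 to 6682492, so that the upper limit which a count of 0 allows, 3 counts, stood for 0.449 to 1.57 CPM (counts scaled to the library total). miR-122-5p, the defining hepatocyte miRNA, made up 58.0 ± 4.21% of counts in p53-/- livers (SD, n = 6) and 54.4 ± 1.95% in p53+/+ livers (SD, n = 5). The p53-induced miR-34a-5p averaged 7.13 ± 2.95 normalised CPM in p53-/- livers (SD, n = 6) and 71.9 ± 32.4 in p53+/+ livers (SD, n = 5). Trp53 itself is not in a miRNA table. p53+/+ libraries 1 and 2 had the fewest counts of all libraries, 1965468 and 1905609, and stood apart in an earlier analysis, as did p53-/- library 6, so results are also given without these where they move. Levels in whole liver cannot tell fewer cells of a type from less RNA per cell.

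The cluster was unevenly represented among the reads of liver. Normalised CPM are CPM after TMM scaling, and mature miRNAs are of nearly the same length, so no scaling by length was needed. Whether all sequences were captured equally well was not tested, so the order below is one of reads. miR-92a-3p, read from the higher hairpin entry, averaged 8270 normalised CPM over the 11 libraries and ranked between 14 and 21 among all miRNAs of a library. It was followed by miR-20a-5p at 316 (ranks 75 to 94), miR-17-5p at 166 (ranks 92 to 120), miR-19b-3p at 42.2 and miR-17-3p at 13.4. The remaining members were near or under 4 CPM: miR-18a-3p at 4.37, miR-19a-3p at 4.21, miR-92a-1-5p at 2.10, miR-18a-5p at 0.836 and miR-20a-3p at 0.179.

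Of the 9 neighbour pairs in that order, 8 differed beyond the spread between libraries in a two-sided sign-flip permutation test of log2 CPM (adjusted p between 0.00176 and 0.00989, n = 11). The order was set by the means of these same libraries, so the test is no independent support for it. With the higher hairpin entry of miR-92a-3p, the first 5 pairs kept their order in 11 of 11 libraries. With its lower entry, the mean log2 difference of the first pair was 0.82 in place of 4.72 (adjusted sign-flip permutation p = 0.0198). miR-92a-3p then had fewer reads than miR-20a-5p in p53+/+ library 3 (2068 against 2210) and library 5 (941 against 1932). miR-18a-3p and miR-19a-3p did not differ beyond their spread, with a mean log2 difference of 0.06 ± 0.69 (SD, n = 11), miR-18a-3p above in 6 of 11 libraries and an adjusted permutation p of 0.719. miR-18a-5p, with 43 reads in all, and miR-20a-3p, with 7 reads in 4 libraries, were below the filter. Fitted without a filter, over 811 miRNAs, their log2 fold changes were -0.75 for miR-18a-5p and -1.02 for miR-20a-3p (adjusted p = 0.627 and 0.693 in edgeR). Of the other arms of these hairpins, miR-19a-5p had 1 read and miR-19b-1-5p had 3 reads in all libraries together.

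**Figure D1:**
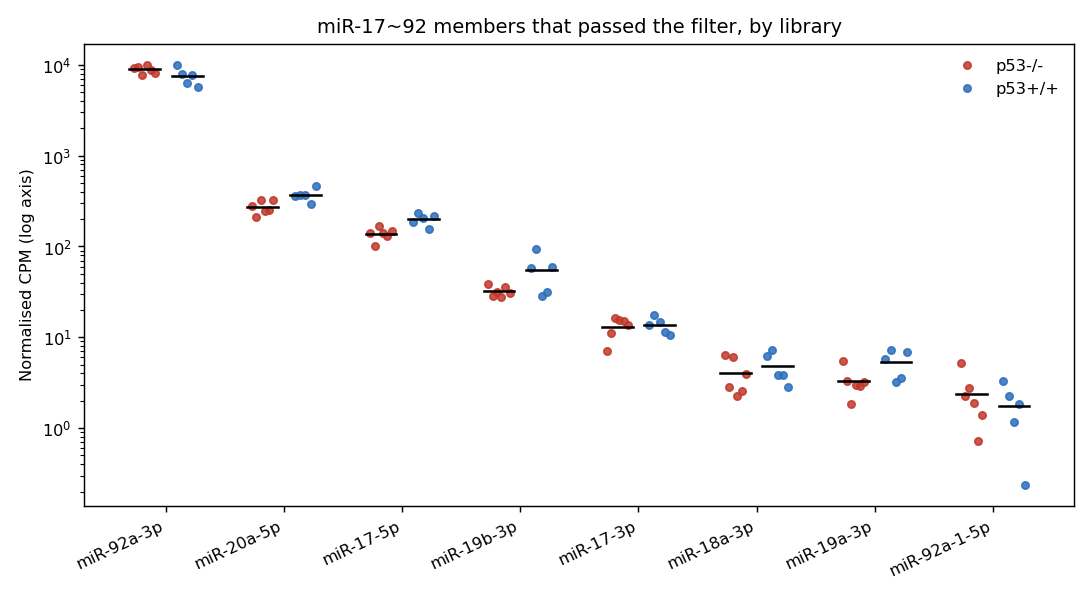
Normalised CPM (log axis) of the 8 members that passed the filter, 1 point per library, with p53-/- left of p53+/+ and a line at each group mean. miR-92a-3p, read from the higher hairpin entry, lies far above the other members, and the genotypes overlap for each of the 8.

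No member passed the test between genotypes, which was edgeR's quasi-likelihood test with Benjamini-Hochberg adjustment over 388 miRNAs at an adjusted p of 0.05. In all, 1 miRNA of the 388 was called lower in p53-/- livers (0.258%), miR-34a-5p, and 0 were called higher (0%). At an unadjusted p under 0.05, 3 of the 8 tested members (miR-17-5p, miR-20a-5p and miR-19b-3p) had lower values in p53-/- livers, where 9.02% of all tested miRNAs did. No member was past that level in the other direction, where 8.25% of miRNAs were. The log2 fold change, p53-/- over p53+/+, was below 0 for 6 of the 8 members and for 51% of all miRNAs tested, with a median of -0.32 for the members and -0.01 for all. The ranges of the genotypes overlapped for all 8, whereas 1.03% of miRNAs lay wholly lower and 1.29% wholly higher in p53-/- livers. DESeq2 called miR-17-5p and miR-20a-5p lower, in a test that called 3.6% of its 250 miRNAs lower and 3.2% higher, while limma-voom called neither. The members miR-18a-3p, miR-19a-3p and miR-92a-1-5p had no adjusted p in DESeq2, so they were not among those 250.

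miR-17-5p, the founding member of the AAAGUGC seed family, had 102, 140 and 166 normalised CPM as the lowest, median and highest value in p53-/- livers. In p53+/+ libraries 1 to 5 it had 187, 235, 204, 154 and 218. Every p53-/- value was under the p53+/+ median, and 5 of the 6 were below every p53+/+ library, but library 8 of the p53-/- livers, at 166, was above library 4 of the p53+/+ livers. The means were 138 ± 21.1 CPM in p53-/- livers (SD, n = 6) and 199.6 ± 30.7 in p53+/+ livers (SD, n = 5). This is a log2 fold change of -0.53 with an SE of 0.16 and a 95% interval of -0.88 to -0.18. The adjusted p was 0.174 in edgeR and 0.0254 in DESeq2.

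miR-20a-5p, its close relative from the same transcript, had a similar profile. It had 209.9, 265 and 324 normalised CPM as the lowest, median and highest value in p53-/- livers. The p53+/+ libraries 1 to 5 had 357, 371, 370.4, 292 and 459. Again the 6 p53-/- values were under the p53+/+ median, and the groups overlapped because p53+/+ library 4 was low. Its log2 fold change was -0.45, with an SE of 0.16 and a 95% interval of -0.80 to -0.09. edgeR gave an adjusted p of 0.184 and DESeq2 0.0490. Lying wholly below the p53+/+ median was seen for 4 of the 8 tested members (these, miR-19a-3p and miR-19b-3p) and for 13.7% of all tested miRNAs.

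The proportion of the pair was steady: miR-20a-5p had between 1.75 and 2.18 reads per read of miR-17-5p in p53-/- libraries and between 1.58 and 2.11 in p53+/+ libraries. The SD of their log2 ratio over the 11 libraries was 0.13, the smallest among the 250 miRNAs compared with miR-17-5p, all of at least 10 CPM on average. Its likeness to miR-17-5p is a description only, because reads of such close sequences may be shared. Outside the cluster, the miRNAs whose pattern was most like that of miR-17-5p were miR-16-5p (SD of the log2 ratio 0.18), miR-340-3p (0.20) and miR-30c-5p (0.20), against a median of 0.51 over 246 miRNAs.

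In liver the AAAGUGC family is shared with other loci. RefSeq lists 7 mature miRNAs with this seed, of which 6 had reads here. The family total averaged 1129 ± 138 normalised CPM in p53-/- livers (SD, n = 6) and 1452 ± 213 in p53+/+ livers (SD, n = 5), with ranges of 932 to 1292 in p53-/- livers and 1229 to 1746 in p53+/+ livers. miR-17-5p and miR-20a-5p together gave 36.2 ± 2.11% of it in p53-/- livers and 39.2 ± 2.53% in p53+/+ livers (SD). Most of the rest was miR-93-5p of the miR-106b~25 cluster, at 699 ± 77.4 CPM in p53-/- livers (SD, n = 6) and 860 ± 136 CPM in p53+/+ livers (SD, n = 5), a log2 fold change of -0.30 (adjusted p = 0.304 in edgeR). So the cluster supplied the minority of reads with its best-known seed in every library, between 33.5% and 43.0%.

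**Figure D2:**
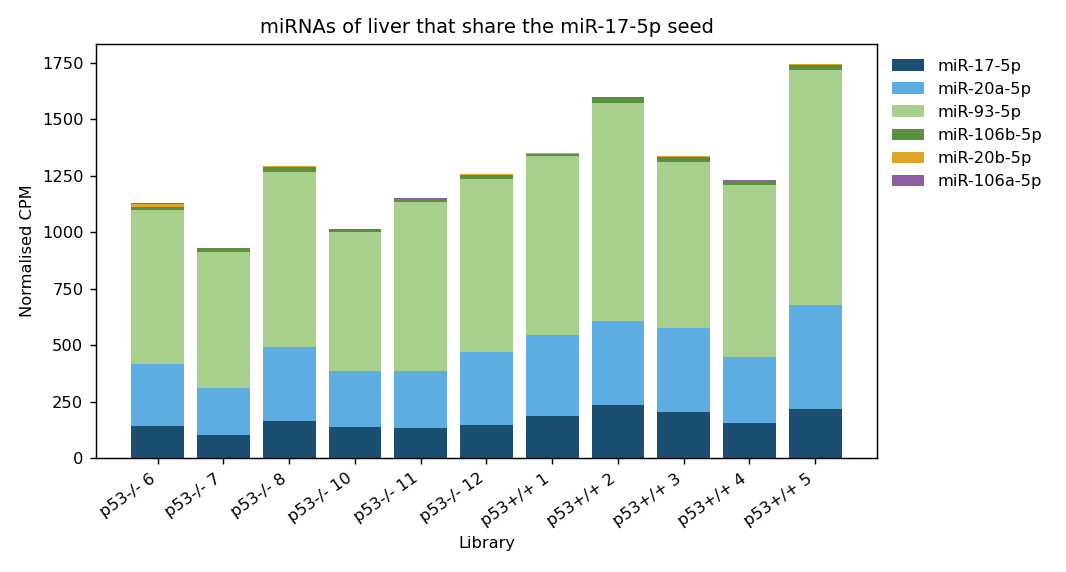
Normalised CPM of the 6 detected miRNAs with the seed of miR-17-5p, stacked per library, p53-/- libraries on the left. miR-93-5p is the tallest part of each bar, and miR-17-5p with miR-20a-5p make up between 33.5% and 43.0% of it.

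The miR-19 pair, which carries the GUGCAAA seed and is regarded as the main oncogenic part of the cluster in mouse lymphoma, varied widely between p53+/+ libraries. miR-19b-3p had 27.9, 31.1 and 38.3 normalised CPM as the lowest, median and highest value in p53-/- livers. Its values in p53+/+ libraries 1 to 5 were 58.2, 94.8, 28.8, 31.8 and 58.7. Libraries 1, 2 and 5 were thus above every p53-/- library, while libraries 3 and 4 were within the p53-/- range. Its log2 fold change came to -0.76 (SE 0.28, 95% interval -1.35 to -0.16, adjusted p = 0.184 in edgeR and 0.0868 in DESeq2). It was -0.50 without p53+/+ library 2 and -0.26 without libraries 1 and 2, with adjusted edgeR p-values of 0.357 and 0.697.

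miR-19a-3p was lower in level, at 1.85, 3.10 and 5.50 normalised CPM as the lowest, median and highest value in p53-/- livers. In p53+/+ libraries 1 to 5 it had 5.72, 7.22, 3.18, 3.53 and 6.90, from between 12 and 29 reads. The same p53+/+ libraries, 1, 2 and 5, were above every p53-/- library as for miR-19b-3p. On the log2 scale the fold change was -0.65, with an SE of 0.33 and a 95% interval of -1.36 to 0.05. Its adjusted p in edgeR was 0.327, and the fold change was -0.39 without libraries 1 and 2. These are the only miRNAs with the GUGCAAA seed in RefSeq, and together they averaged 35.3 ± 4.90 CPM in p53-/- livers (SD, n = 6) and 59.8 ± 28.3 in p53+/+ livers (SD, n = 5). Outside the cluster, the patterns most like that of miR-19b-3p were those of miR-361-5p (SD of the log2 ratio 0.33), miR-15a-5p (0.34) and miR-16-5p (0.34), against a median of 0.71 over 246 miRNAs.

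**Figure D3:**
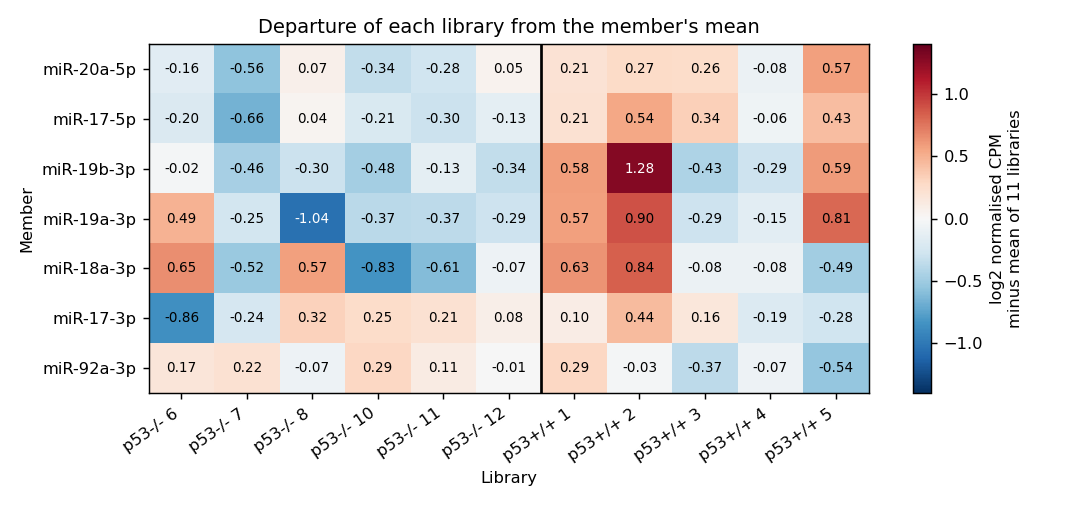
Log2 normalised CPM of 7 tested members minus the mean of the 11 libraries, with p53-/- libraries left of the line and p53+/+ libraries right of it. The highest cell is miR-19b-3p in p53+/+ library 2, at 1.28. The row of miR-92a-3p, read from the higher hairpin entry, spans -0.54 to 0.29. With the lower entry, not shown, miR-92a-3p ran from 374 to 763 normalised CPM in p53-/- and from 224 to 1418 in p53+/+ libraries.

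miR-92a-3p, which carries the AUUGCAC seed and is known to act on endothelial growth, had the opposite sign. It had 7761, 8988 and 9952 normalised CPM as the lowest, median and highest value in p53-/- livers. Among p53+/+ livers, libraries 1 to 5 had 9944, 8011, 6325, 7781 and 5623. The groups overlapped widely, with 5 of 6 p53-/- libraries above the p53+/+ median. Its log2 fold change came to 0.24 (SE 0.16, 95% interval -0.10 to 0.58, adjusted p = 0.496 in edgeR), 0.49 without p53+/+ libraries 1 and 2, and 0.12 without library 5. Its 95% interval did not overlap that of miR-17-5p, and the difference between these fold changes was not tested. The sequence of miR-92a-3p is also encoded on the X chromosome, so its reads need not all come from the transcript of miR-17. With the lower hairpin entry its log2 fold change was -0.27, within the interval of miR-17-5p.

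With the higher entry, miR-92a-3p gave most of the total of the cluster. It made up 94.95 ± 1.11% of the reads of the 10 members in p53-/- livers (SD, n = 6) and 91.7 ± 2.44% in p53+/+ livers (SD, n = 5). The 10 members together came to 9347 ± 773 normalised CPM in p53-/- livers and 8188 ± 1645 in p53+/+ livers. Without miR-92a-3p the other 9 came to 465 ± 67.4 CPM in p53-/- livers, with a range of 361 to 549, and 651 ± 103 in p53+/+ livers, with a range of 499.8 to 757. These totals rest on the higher of the hairpin entries described below. With the lower entry miR-92a-3p made up 53.8 ± 10.9% of the members' reads in p53-/- livers and 46.8 ± 17.9% in p53+/+ livers. The 10 members then came to 1031 ± 155 normalised CPM in p53-/- livers and 1330 ± 470 in p53+/+ livers, so the direction of the total turned with the entry.

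The ratio of miR-92a-3p to miR-17-5p reads, which needs no scaling between libraries, was chosen for description after its values were seen and was not tested. It was 65.1, 92.7, 46.6, 71.2, 67.2 and 55.1 in p53-/- libraries 6, 7, 8, 10, 11 and 12. Libraries 1 to 5 of the p53+/+ livers gave 53.2, 34.1, 31.0, 50.4 and 25.8. The groups overlapped through p53-/- library 8 alone, and the other 5 p53-/- libraries exceeded every p53+/+ library. With the lower hairpin entry the ratio ran from 2.25 to 7.27 in p53-/- libraries and from 1.03 to 7.59 in p53+/+ libraries, with p53+/+ library 1 above every p53-/- library, so the separation was not seen with that entry.

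The count of miR-92a-3p is the least certain of the members. The mature sequence is also encoded on the X chromosome, by Mir92-2 of a paralogous cluster that also holds miR-106a, and the authors' table lists the name under each hairpin with unequal counts. The hairpins are shown with the shared mature sequence in capitals.
Mir92-1: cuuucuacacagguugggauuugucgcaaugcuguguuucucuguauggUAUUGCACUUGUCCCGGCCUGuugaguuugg
Mir92-2: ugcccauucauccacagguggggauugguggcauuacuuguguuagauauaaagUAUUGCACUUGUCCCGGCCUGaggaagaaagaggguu
Mir92-1 lies at chr14:115044427-115044506 on the plus strand and Mir92-2 at chrX:52741838-52741928 on the minus strand. Beyond the 21 shared bases the hairpins agree at 1 base before the mature sequence and at 0 bases after it.

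The Mir92-2 entry held 6.28 ± 1.66% of the count of the Mir92-1 entry in p53-/- livers (SD, n = 6) and 8.30 ± 4.09% in p53+/+ livers (SD, n = 5). It ran from 4.35% to 8.32% in p53-/- libraries and from 3.98% to 14.3% in p53+/+ libraries, with p53+/+ libraries 1 and 2 highest at 14.3% (95% Wilson interval 13.8 to 14.7%) and 10.3% (9.84 to 10.7%). With the lower entry in place of the higher, the log2 fold change of miR-92a-3p turned to -0.27 (adjusted p = 0.776 in edgeR), so its sign depends on the entry read. Its level with the lower entry averaged 566 ± 186 normalised CPM in p53-/- livers (SD, n = 6) and 679 ± 473 in p53+/+ livers (SD, n = 5). miR-19b-3p, also encoded by both clusters, had identical counts under its hairpins in all 11 libraries, so its reads cannot be divided between chromosomes 14 and X. The opposite arms are particular to a hairpin: miR-92a-1-5p had between 1 and 23 reads in each library, and miR-92a-2-5p had 2 reads, all in p53-/- library 6.

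Within the AUUGCAC family miR-92a-3p, read from the higher entry, gave 86.9 ± 2.43% of reads in p53-/- livers and 86.4 ± 4.48% in p53+/+ livers (SD). The second contributor was miR-25-3p of the miR-106b~25 cluster, which had the same sign at a log2 fold change of 0.22 (adjusted p = 0.574 in edgeR). miR-92b-3p (0.18) and miR-32-5p (-0.10), which carry the seed too (miR-92b-3p was added after its values were seen), averaged 6.56 and 5.97 CPM, and neither passed. miR-367-3p, an embryonic stem cell miRNA, had 0 reads in each library. Outside the cluster, the patterns most like that of miR-92a-3p were those of let-7d-3p (SD of the log2 ratio 0.14), miR-423-3p (0.18) and let-7b-5p (0.19), against a median of 0.50 over 246 miRNAs. miR-17-5p ranked only 156 of 250 by that measure, at 0.56.

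The second arms of the hairpins gave few reads. miR-17-3p had 7.11, 14.4 and 16.3 normalised CPM as the lowest, median and highest value in p53-/- livers. In p53+/+ libraries 1 to 5 it had 13.8, 17.6, 14.6, 11.4 and 10.7. The groups overlapped, and the fold change on the log2 scale was -0.05 (SE 0.24, 95% interval -0.57 to 0.47, adjusted p = 0.951 in edgeR), a value that turned positive in some of the alternatives.

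The ratio of the arms of the miR-17 hairpin, tested as log2 of 5p over 3p reads with 0.5 reads added, was lower in most p53-/- libraries. miR-17-5p had 19.8, 9.24, 10.2, 8.99, 8.76 and 10.7 reads per read of miR-17-3p in p53-/- libraries 6, 7, 8, 10, 11 and 12. The ratio was 13.5 in p53+/+ library 1, then 13.3, 14.0, 13.5 and 20.3 in libraries 2 to 5. All p53-/- libraries but library 6 were below every p53+/+ library. The mean log2 ratio was 3.42 ± 0.44 in p53-/- livers (SD, n = 6) and 3.87 ± 0.26 in p53+/+ livers (SD, n = 5). The difference of -0.45 did not pass a two-sided exact permutation test (p = 0.0866, adjusted p = 0.346 over 4 hairpins, smallest p possible 0.00433). Without p53-/- library 6, which rests on 31 reads of miR-17-3p, the difference was -0.62 and the adjusted exact permutation p was 0.0317. Leaving out the only p53-/- library that was not below every p53+/+ library separates the groups fully. The test then gives the smallest p it can, so this value is no support for a difference. p53+/+ library 1, with 29 reads of miR-17-3p, was kept.

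**Figure D4:**
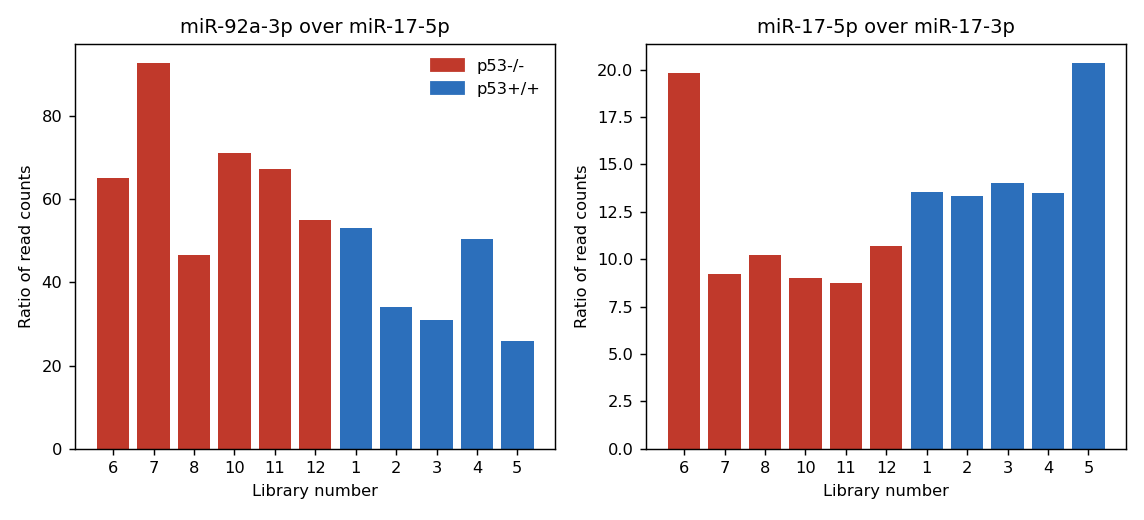
Ratios of read counts in each library, p53-/- libraries on the left of each panel. The ratio of miR-92a-3p to miR-17-5p runs from 46.6 to 92.7 in p53-/- and from 25.8 to 53.2 in p53+/+ libraries. For miR-17-5p over miR-17-3p, 5 p53-/- libraries are below all p53+/+ libraries and p53-/- library 6 is at 19.8.

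The other hairpins showed no difference in arm use that passed the exact permutation test. miR-18a was represented mainly by its 3p arm, with 0.165 reads of miR-18a-5p per read of miR-18a-3p over the p53-/- libraries and 0.253 over the p53+/+ libraries (adjusted exact permutation p = 0.416). miR-18a-3p had 2.25 to 6.42 normalised CPM in p53-/- livers and 2.85 to 7.22 in p53+/+ livers. Its log2 fold change was -0.20 (SE 0.36, adjusted p = 0.792 in edgeR), and 0.22 without p53+/+ libraries 1 and 2. miR-20a and miR-92a were almost wholly represented by 1 arm, and their log2 ratios differed by 0.63 and -0.24 between genotypes (adjusted exact permutation p = 0.618 and 0.688).

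miR-92a-1-5p, the second arm of miR-92a-1, had 0.730 to 5.27 normalised CPM in p53-/- livers and 0.238 to 3.34 in p53+/+ livers, from 1 to 23 reads. Its log2 fold change was 0.56 (SE 0.55, adjusted p = 0.627 in edgeR). It was 0.21 without p53-/- library 6 and 1.11 without p53+/+ libraries 1 and 2. miR-18a-5p was at 0 to 1.64 CPM in p53-/- livers and 0.476 to 1.51 in p53+/+ livers, from 0 to 11 reads a library.

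The members' sequences differ in base composition. The 3 members past an unadjusted p of 0.05 have G or C at 47.8% (miR-17-5p), 39.1% (miR-20a-5p) and 39.1% (miR-19b-3p) of bases, against 57.1% for miR-92a-3p and 54.5% for miR-17-3p. miR-92a-1-5p, whose value was above 0, has 47.8%, as miR-17-5p does. The other tested members, miR-19a-3p at -0.65 and miR-18a-3p at -0.20, have 34.8% and 54.5%. miR-93-3p and miR-25-5p of the miR-106b~25 cluster both have 59.1%, with log2 fold changes of -0.71 and 0.55. The part of base composition in these values was not tested.

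Markers of other cells were set beside the members, since the cluster is high in dividing lymphoid cells. All 7 leukocyte miRNAs were tested, with 2 below 0 and 5 above, and none at 0 reads in a library. Their summed level ran from 815 to 1296 normalised CPM in p53-/- livers and from 888 to 1913 in p53+/+ livers. miR-142-5p, found across blood leukocytes, was at 0.18 and the lymphocyte miRNA miR-150-5p at 0.68, while miR-146a-5p, which gave most of the sum, was at -0.57 (adjusted p-values of 0.777, 0.174 and 0.190 in edgeR). Pancreas miRNAs were at 6.75 to 27.5 CPM in p53-/- livers and 2.86 to 410.2 in p53+/+ livers, highest in library 5. Of the 4, miR-216a-5p and miR-217-5p had 0 reads in some libraries of either genotype. The 2 that were tested, miR-217-5p at -4.47 and miR-375-3p at -2.22, were below 0 (adjusted p = 0.174 for each in edgeR). Both were at an unadjusted p under 0.05, and neither was called. For these lists, the share over all 388 tested miRNAs was 51% below 0 and 9.02% lower at an unadjusted p under 0.05 in edgeR. All 5 epithelial miRNAs had log2 fold changes below 0, with a median of -0.59. Of these, 3 were at an unadjusted p under 0.05 and none was called. Among them miR-429-3p was at -1.20 and miR-141-3p at -1.83 (adjusted p = 0.174 for each in edgeR). The epithelial sum ran from 661 to 2223 CPM in p53-/- livers and from 810 to 2745 in p53+/+ livers. Both endothelial miRNAs were below 0, miR-126-5p at -0.40 and miR-126-3p at -0.13 (adjusted p = 0.304 and 0.785 in edgeR), with sums of 5772 to 10477 CPM in p53-/- livers and 6012 to 11013 in p53+/+ livers. Of 4 erythroid miRNAs 2 were below 0, and of 5 stellate and mesenchymal ones 4 were, with none called. The 5 hepatocyte miRNAs were split, with 3 above 0 (miR-122-5p at 0.16) and 2 below, miR-194-5p at -0.52 and miR-192-5p at -0.14, and none called. The part of these cell types in the members' values was not tested.

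The arms particular to the X-linked cluster with miR-106a had few reads in liver. The list of 10 leaves out miR-19b-3p and miR-92a-3p, which that cluster also encodes, so the level of the whole cluster is not known. Of the 10 listed arms 1 passed the filter, miR-20b-5p, at 3.83 ± 4.48 CPM in p53-/- livers (SD, n = 6) and 2.64 ± 1.02 in p53+/+ livers (SD, n = 5). Its log2 fold change was 0.51 (adjusted p = 0.702 in edgeR). p53-/- library 6 set that fold change, which was -0.41 without it. The same library also had the most reads of miR-106a-5p, 20, and of miR-363-3p, 25. miR-106a-5p differs from miR-17-5p by U10A alone and reached at most 4.59 CPM, against 102 CPM or more of miR-17-5p.

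The 6 arms of miR-106b~25, a cluster within the DNA replication gene Mcm7 on chromosome 5, were all tested, and 0 passed in either direction. At an unadjusted p under 0.05, 1 was higher and 1 lower in p53-/- livers, against 8.25% and 9.02% of all tested miRNAs. Values were above 0 for 3 of these arms and below 0 for 3, with a median of -0.03. Of all tested miRNAs 51% were below 0. Its arms with the AAAGUGC seed were at -0.30 (miR-93-5p) and -0.28 (miR-106b-5p), where miR-20b-5p of the X-linked cluster, with the same seed, was at 0.51. miR-25-3p, with the AUUGCAC seed, was at 0.22, and at 0.05 without p53+/+ libraries 1 and 2. The values farthest from 0 were those of miR-93-3p at -0.71 and miR-25-5p at 0.55 (adjusted p = 0.178 and 0.192 in edgeR), from 9 to 84 reads a library.

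**Figure D5:**
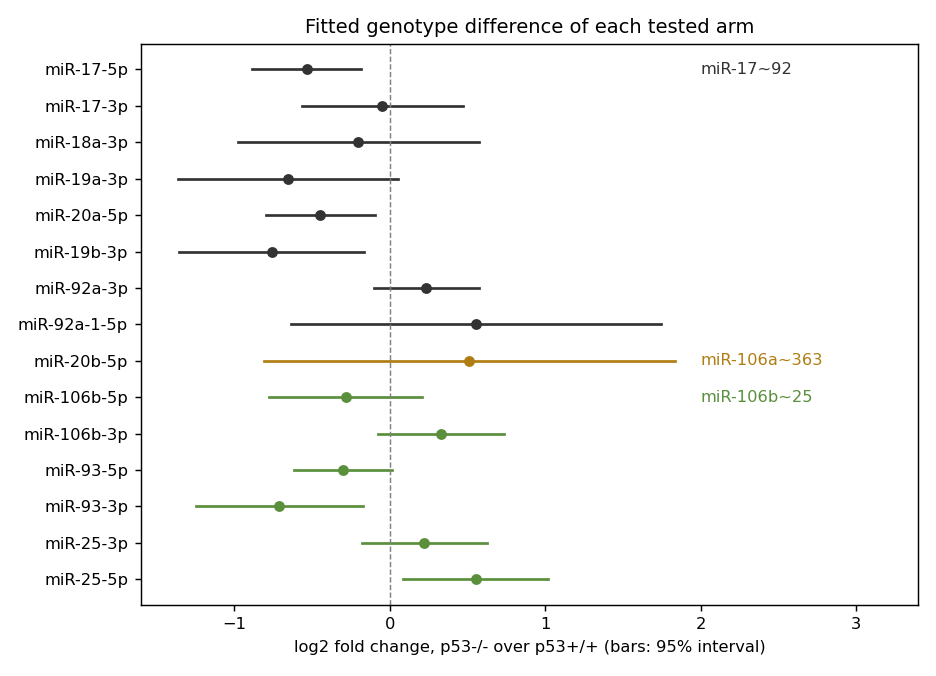
Log2 fold change, p53-/- over p53+/+, with its 95% interval from edgeR for the 8 tested members, for miR-20b-5p of the X-linked cluster and for the 6 arms of miR-106b~25. Intervals of miR-17-5p, miR-20a-5p and miR-19b-3p lie below 0, those of the other members span it, and no arm shown passed after adjustment over 388 miRNAs.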

How the data were processed

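Small RNA libraries were made from total RNA of 50 mg of liver, per the labels' protocols, with a kit the labels name as a DNA sample kit. Deposited by the authors were counts of reads for each mature miRNA under each hairpin. The submitters' processing notes name GRCm38 and limma. Aligner, trimming and counting rules were not given in the sources used here. CPM were deposited by the authors as well, scaled to the sum over all 1418 entries. The counts of each library's own file were those of the series table (0 differing values). No pair of libraries within a genotype agreed within counting error (chi-square per degree of freedom at least 98.2).

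Counts were collapsed to 1281 names, with the highest count over hairpin entries. Genotypes were compared by the quasi-likelihood test of edgeR 4.0.16 (R 4.3.3) after TMM scaling and filterByExpr, with DESeq2 1.42.0 and limma 3.58.1 (voom) beside it. The edgeR procedure was tested on simulated data. Arm ratios were compared with exact permutation tests and neighbouring levels with sign-flip permutation tests, with Benjamini-Hochberg adjustment over 4 and 9 comparisons. Likeness of pattern was the SD over 11 libraries of the log2 ratio with 0.5 reads added, among miRNAs of at least 10 CPM on average. Named miRNAs were all members, the tested arms of the paralogous clusters, miR-32-5p and miR-367-3p as further carriers of a seed (miR-92b-3p was added later), the 3 nearest patterns of miR-17-5p, miR-19b-3p and miR-92a-3p, and miR-34a-5p. miR-142, miR-126 and miR-486 markers were matched by these names in the table. The members and lists were chosen with earlier results of these data known. Reads carried no molecular tags, so the Wilson intervals of hairpin-entry percentages and the upper limits for absent reads describe counting error alone. The intervals of log2 fold changes come from the edgeR fit and also reflect variation among libraries. Sequences are from RefSeq and gene annotation from GENCODE M21.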

Additional observations from a re-analysis of the deposited data

Results flagged for a closer look

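A library far from the others of its genotype was looked for in 48 groups of values, and chance alone gives about 1 such library in 20 groups. The log2 arm ratio of miR-17 was 4.29 in p53-/- library 6, where the others were between 3.11 and 3.41. It was 4.33 in p53+/+ library 5, where the others were between 3.72 and 3.80. miR-20a-3p was at 0.562 normalised CPM in p53-/- library 10, from 3 reads, and had no read in the other p53-/- libraries. miR-20b-5p was at 12.8 CPM in p53-/- library 6, against 1.26 to 2.96 in the others. miR-106b-5p was at 11.4 CPM in p53+/+ library 1, against 19.9 to 22.1 in the others. miR-93-3p was at 6.97 CPM in p53-/- library 12, against 3.29 to 4.63 in the others.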

How the results depend on the processing

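No paired analysis was possible because the replicate numbers run across both genotypes and none is shared. DESeq2 called 8 miRNAs higher and 9 lower in p53-/- livers, in place of 0 and 1, and 2 members lower in place of 0: miR-17-5p at -0.56 and miR-20a-5p at -0.47. No alternative called a member higher. miR-17-3p was at 0.13 without p53+/+ libraries 1 and 2 and at 0.10 with the p53-/- libraries of HA number above 500 alone. With a library left out it ran from -0.17 to 0.08, positive without p53-/- library 6 (0.078) or p53+/+ library 2 (0.02). Without p53+/+ libraries 1 and 2, miR-18a-3p was at 0.22 and the miR-20a arm ratio at -0.22. With the lowest count over hairpin entries miR-92a-3p was at -0.27. With a library left out the miR-17 arm ratio ran from -0.62 to -0.33. It passed only without p53-/- library 6, the one library that kept the groups from separating fully. The miR-92a arm ratio ran from -0.49 to 0.18 with a library left out, above 0 without p53-/- library 6 (0.01) or p53+/+ library 5 (0.18). Of the other arms, miR-20b-5p was at -0.056 in limma-voom, ran from -0.41 (without p53-/- library 6) to 0.78 with a library left out and was at -0.52 with the p53-/- libraries of HA number above 500 alone. miR-32-5p ran from -0.31 to 0.11 with a library left out, above 0 without p53-/- library 6 (0.068) or p53+/+ library 2 (0.11), and was at 0.11 without p53+/+ libraries 1 and 2. The cause was not tested for any of these. With a library left out, miR-17-5p ran from -0.65 to -0.49, miR-20a-5p from -0.57 to -0.39, miR-19b-3p from -0.97 to -0.50, miR-19a-3p from -0.85 to -0.54 and miR-92a-3p from 0.12 to 0.36, with no change of sign or call in these. RLE size factors or total counts alone turned no member's sign. miR-92a-1-5p passed the filter in 9 of the 11 cases with a library left out. In the authors' normalized CPM, exact permutation tests gave adjusted p-values of 0.121 for miR-17-5p and miR-20a-5p over 8 members.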
